A study of Mus musculus with 8 samples.

Results

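Atf4, Ddit3 (which encodes CHOP), Atf3, Atf5, Cebpb, Nupr1, Trib3, Ppp1r15a, Chac1 and Sesn2 are 10 regulators and early targets of the integrated stress response. Their RNA was compared between WT and DKO S0 cells of fetal liver, most of which the study takes to be erythroid precursors. These regulators are 10 of the 52636 genes in the count table. They were chosen by function, with earlier WT and DKO results of these same libraries already known, so their differences are given as a description with no p-value. The cells were S0 cells, the CD71-negative, Ter119-negative cells that remain in E12.5 mouse fetal liver after cells with other lineage markers are gated out by FACS. There were 4 WT libraries and 4 DKO libraries. DKO embryos carried homozygous null alleles of both Vps13a, from which β-actin-Cre had removed an exon throughout the body, and Vps13c, and came from crosses of Vps13a+/- Vps13c-/- parents on a C57BL/6J background. Parents that lack Vps13c give no embryos that are WT at both genes, so embryos WT at both came from other litters, and litter and genotype cannot be told apart. VPS13A and VPS13C are bridge-like proteins that move lipids between organelle membranes.

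The integrated stress response begins when 1 of 4 kinases, PERK, PKR, GCN2 or HRI, phosphorylates the translation factor eIF2α. Protein synthesis as a whole then slows, while a few mRNAs with short open reading frames ahead of their coding sequence, Atf4 first among them, are translated more. The ATF4 protein is a bZIP transcription factor that switches on genes of amino acid supply and further regulators, among them CHOP. CHOP and ATF4 together drive TRIB3 and GADD34 (encoded by Ppp1r15a), which feed back on the response. In red cell precursors HRI is the best known of the kinases, where it ties globin synthesis to the supply of heme.

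The libraries held 42114489 to 50886469 counts in WT and 36981439 to 42587815 in DKO. Vps13a fell in DKO (log2 fold change -1.29 ± 0.17 SE, n = 4 and 4, edgeR adjusted p = 0.00247), while Vps13c RNA did not (0.49 ± 0.24, edgeR adjusted p = 0.182), and a count over the whole gene does not check a deletion of part of it. All 4 WT libraries and DKO replicate 3 had RNA of the Y-linked gene Ddx3y at 2516 to 3354 normalized counts and little Xist, while DKO replicates 1, 2 and 4 had 18029 to 27043 normalized counts of Xist. The 3 Xist-high libraries are all DKO, so the regulators are also given for DKO replicate 3 alone, which matches the WT libraries in sex. RNA of the labelled cell type was present in every library: the summed level of 18 erythroid markers was 58705 to 67284 normalized counts in WT, against 49527 to 79913 in DKO, with none of them at 0 in any library. Hepatoblast markers summed to more (802657 to 1089540 in WT, 254838 to 950466 in DKO). Myeloid markers summed to 119684 to 155333 in WT and 8393 to 56934 in DKO. Such sums do not measure shares of cells, but the values below are those of the sorted cells as a whole. Markers of other cell types also differed between the groups, and DKO replicate 4 stood apart in the regulators, so values without single libraries are given where they change a call.

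All 10 regulators passed the low-count filter, and all 10 were higher in DKO, with log2 fold changes between 0.74 and 5.62 and a median of 1.99. The median over all 17378 genes tested was 0.03. With the study's thresholds, a log2 fold change above 1 at an adjusted p below 0.05, 9 of the 10 were called higher and none lower, beside 6.19% of all genes tested that were called higher. Without the fold threshold all 10 passed, beside 10.7% of all genes that were higher at that adjusted p. In 9 of the 10 every DKO library lay above every WT library, which held for 13.5% of all genes tested. Because results of this contrast were known when the genes were chosen, nothing is read from these counts. Values below are normalized counts, that is, counts scaled to library size with TMM factors, and fold changes are DKO over WT with their standard error.

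**Figure D1:**
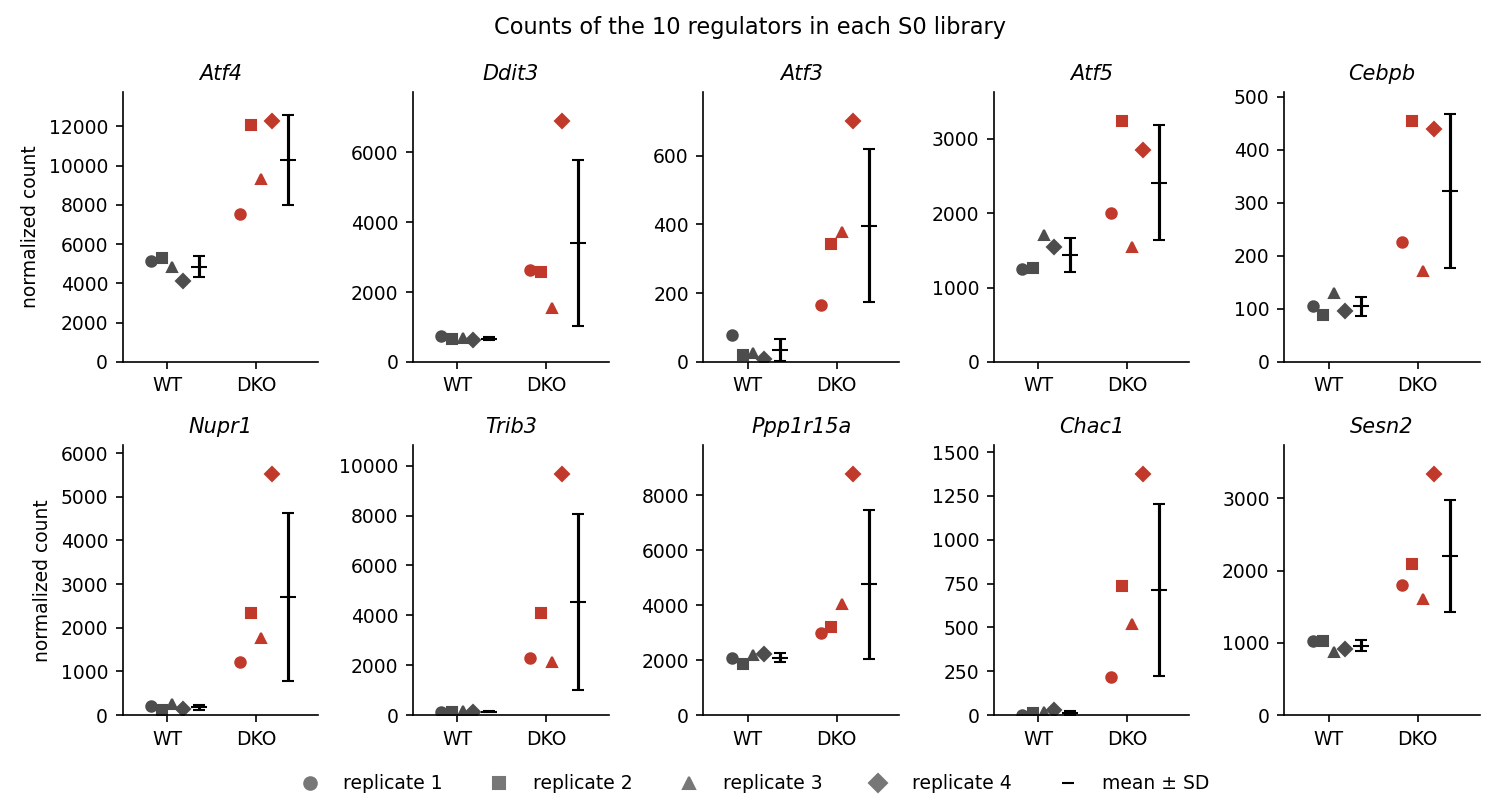
Normalized counts of the 10 regulators in each of the 4 WT (grey) and 4 DKO (red) libraries, on linear axes that start at 0. Symbols mark the replicate and the bar at the right of each group is the mean with its SD. Every DKO library lies above every WT library in each gene but Atf5, and DKO replicate 4 is the highest library in 8 of the 10.

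The transcription factors differed widely in size of change. Atf4 (chr15:80255184-80257541, plus strand, mm10), the factor that carries the response from eIF2α to the nucleus, stood at 5163, 5283, 4841 and 4126 normalized counts in the WT libraries (replicates 1 to 4, the order used throughout) and at 7532, 12064, 9306 and 12276 in the DKO libraries. All 4 DKO libraries were above all WT libraries, with the lowest at 1.43 times the highest WT value. The log2 fold change was 1.08 ± 0.16 (SE, n = 4 and 4), close to the fold threshold: it was 1.0 without DKO replicate 2 and 0.99 without DKO replicate 4, and Atf4 was then not called.

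Ddit3 (chr10:127290774-127296288, plus strand) encodes CHOP, a C/EBP family factor tied to cell death under lasting stress. It had 733, 644, 673 and 620 normalized counts in WT, against 2640, 2570, 1548 and 6894 in DKO. The groups did not overlap, WT varied by a CV of 7.32%, and DKO replicate 4 was well above the other 3. DKO over WT, the change was 2.35 ± 0.40 on the log2 scale (SE, n = 4 and 4), and it was 1.76 without DKO replicate 4. Ddit3 overlaps Mars, a tRNA synthetase gene on the opposite strand, which had a mean of 8164 normalized counts in WT, against 7954 in DKO (log2 fold change -0.04). By gene positions the overlap is only the end of Ddit3, chr10:127296221-127296288. The library kit does not mark strand, so reads from the overlap cannot be assigned to either gene.

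Atf3 (chr1:191170296-191218039, minus strand), a stress-induced bZIP factor, was low in WT, at 79.6, 20.7, 26.9 and 8.74 normalized counts, and stood at 165, 342, 378 and 701 in DKO. WT replicate 1 was the highest of its group, and the lowest DKO library still had 2.07 times its value. The log2 fold change was 3.55 ± 0.69 (SE, n = 4 and 4), and it was 4.38 without WT replicate 1 and 3.12 without DKO replicate 4.

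Nupr1 (chr7:126623249-126630861, minus strand) encodes a small chromatin-associated stress protein. Its values were 205, 125, 255 and 145 normalized counts in WT, against 1213, 2347, 1762 and 5519 in DKO. The lowest DKO library was at 4.75 times the highest WT library. Its log2 fold change was 3.89 ± 0.49 (SE, n = 4 and 4).

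Cebpb (chr2:167688915-167690418, plus strand), the C/EBP factor that pairs with CHOP and ATF4, had 106, 88.6, 129 and 96.2 normalized counts in WT, against 225, 454, 172 and 439 in DKO. The groups did not overlap, but the DKO values formed a lower pair, replicates 1 and 3, and a higher pair, replicates 2 and 4. The change was 1.62 ± 0.36 on the log2 scale (SE, n = 4 and 4). Cebpb overlaps Tmem189 on the opposite strand, which had a mean of 533 normalized counts in WT, against 626 in DKO, more than Cebpb itself. By gene positions this overlap, chr2:167688915-167689822, takes up much of Cebpb.

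Atf5 (chr7:44812256-44816658, minus strand), a bZIP factor linked to the mitochondrial stress response and, like Atf4, controlled by upstream open reading frames, was the exception. It had 1246, 1262, 1706 and 1541 normalized counts in WT, against 2003, 3243, 1543 and 2847 in DKO. DKO replicate 3 lay inside the WT range, so the groups overlapped. The log2 fold change of 0.74 ± 0.22 (SE, n = 4 and 4) did not reach the fold threshold, and it was 0.08 in DKO replicate 3 alone. Atf5 overlaps Nup62 on the opposite strand, a nuclear pore gene with far more reads, whose mean normalized count was 11562 in WT and 8365 in DKO. By gene positions the shared stretch is chr7:44816088-44816658.

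The genes that feed back on the response come next. Trib3 (chr2:152337422-152344032, minus strand) encodes a pseudokinase that binds ATF4 and restrains it. It had 133, 145, 169 and 139 normalized counts in WT, against 2305, 4093, 2115 and 9658 in DKO. The WT libraries were within 1.27 times of each other, and the lowest DKO library stood above the highest of them by the widest ratio of the 10 genes. The log2 fold change was 4.95 ± 0.51 (SE, n = 4 and 4), or 31.0-fold.

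Ppp1r15a (chr7:45522916-45526268, minus strand) encodes GADD34, which brings protein phosphatase 1 to eIF2α and ends its phosphorylation. Its normalized counts were 2098, 1874, 2187 and 2214 in WT and 2996, 3227, 4058 and 8772 in DKO. The lowest DKO library was only 1.35 times the highest WT library, and DKO replicate 4 stood well above the other 3. The log2 fold change was 1.19 ± 0.31 (SE, n = 4 and 4), and 0.71 without DKO replicate 4. Ppp1r15a was also not called when any 1 of the 4 WT libraries was left out, with log2 fold changes of 1.14 to 1.21. Tulp2, which overlaps it on the opposite strand at chr7:45522916-45523632, had a mean of 56.6 normalized counts in WT, against 159 in DKO.

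The last 2 genes act on redox balance and growth. Chac1 (chr2:119351229-119354381, plus strand), an enzyme that degrades glutathione, was close to absent in WT, with 0, 12, 15.6 and 28.9 normalized counts. A count of 0 in WT replicate 1 allows up to 3.14 normalized counts (3 counts in that library), for counting error only. In DKO Chac1 had 217, 737, 519 and 1374 normalized counts, so the lowest was 7.54 times the highest WT value. Its log2 fold change of 5.62 ± 0.87 (SE, n = 4 and 4) was the largest of the 10 genes and also had the largest error.

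Sesn2 (chr4:132492032-132510501, minus strand), a sestrin that holds back mTORC1 when leucine is scarce, had 1027, 1025, 876 and 922 normalized counts in WT, against 1796, 2085, 1609 and 3335 in DKO. The groups did not overlap. Its log2 fold change was 1.20 ± 0.21 (SE, n = 4 and 4), and 0.93 without DKO replicate 4.

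The 4 DKO libraries were not alike. Set against the WT mean of each gene on a log2(normalized count + 1) scale, the median over the 10 genes was 1.55 in DKO replicate 1, 2.03 in replicate 2, 1.09 in replicate 3 and 2.72 in replicate 4. DKO replicate 4 was the highest library in 8 of the 10 genes and replicate 2 in Atf5 and Cebpb. The lowest was replicate 1 in 5 genes and replicate 3 in the other 5. Among DKO libraries the highest value was 1.63 times the lowest for Atf4, 4.57 times for Trib3 and 6.32 times for Chac1. Summed over the 10 genes, the WT libraries held 9841 to 10879 normalized counts and DKO replicates 1 to 4 held 21091, 31162, 23010 and 51815.

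**Figure D2:**
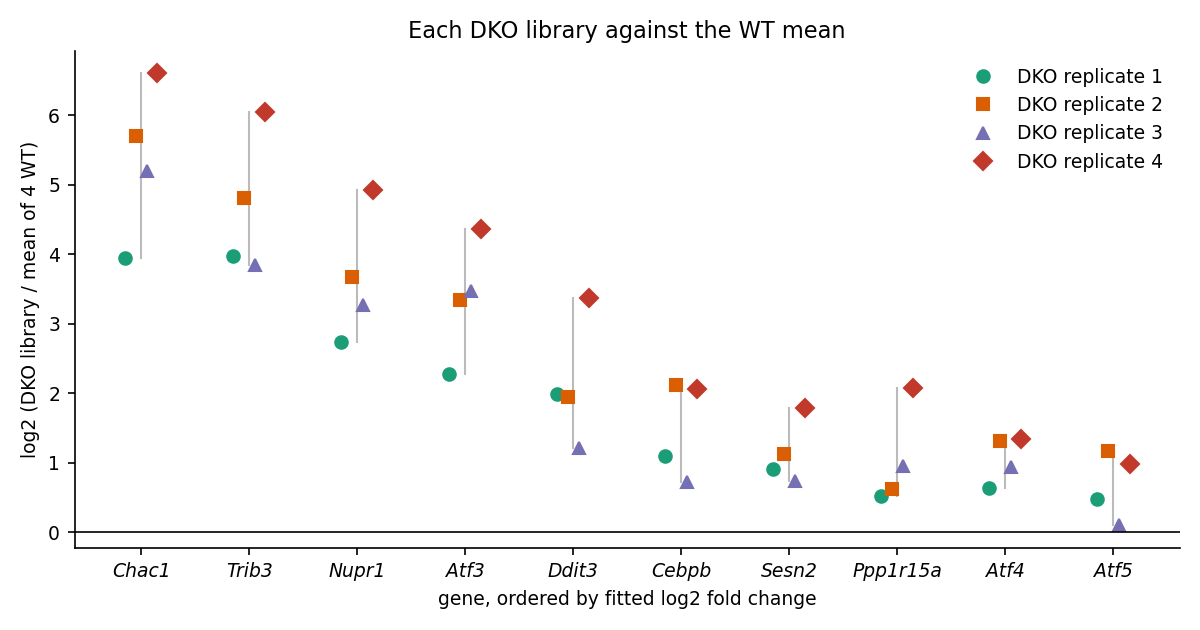
Log2 ratio of each DKO library to the mean of the 4 WT libraries for the 10 regulators, ordered by their fitted log2 fold change; the grey line joins the lowest and the highest library. DKO replicate 4 is the top point in 8 genes, and the only point near 0 is Atf5 in DKO replicate 3.

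Leaving out DKO replicate 4 left 6 of the 10 called, Atf4, Sesn2, Ppp1r15a and Atf5 being the 4 that were not, beside 5.16% of all genes called higher in that fit. In the sex-matched comparison of DKO replicate 3 alone with WT, where the spread comes from the WT libraries only and 1 library stands for the genotype, 5 of the 10 were called, beside 2.96% of all genes. These were Ddit3, Atf3, Nupr1, Trib3 and Chac1, with log2 fold changes of 1.20, 3.47, 3.25, 3.83 and 5.15. Atf4, Ppp1r15a, Sesn2, Cebpb and Atf5 stood at 0.92, 0.94, 0.72, 0.69 and 0.08. All 10 were thus above 0 in the one male DKO library, and the median was 1.07. With 1 male DKO library, the part of sex and the part of genotype in these differences cannot be told apart.

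The order of the regulators by level also differed between the groups. Per kilobase of principal transcript, Atf4 led in WT at 2814 ± 301 normalized counts per kb (SD, n = 4). Atf5, Ddit3 and Ppp1r15a followed at 792 ± 123, 750 ± 54.9 and 745 ± 54.9, and these neighbours did not differ beyond their ranges. Sesn2 was at 277 ± 21.8 and Nupr1 at 220 ± 71.6, also overlapping. Trib3 and Cebpb overlapped at 72.3 ± 7.67 and 69.8 ± 11.8, and Atf3 and Chac1 closed the list at 17.1 ± 15.8 and 8.63 ± 7.25.

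In DKO, Atf4 was again first, at 5968 ± 1325 normalized counts per kb. Ddit3, Nupr1 and Trib3 came next at 3835 ± 2667, 3269 ± 2327 and 2242 ± 1740, ahead of Ppp1r15a at 1696 ± 965 and Atf5 at 1327 ± 427. Sesn2 was at 635 ± 224, Chac1 at 435 ± 299, Cebpb at 214 ± 96.4 and Atf3 at 200 ± 113. The ranges of all neighbours in this order overlapped. Divided by all annotated exon bases instead, Nupr1 dropped to 1078 normalized counts per kb in DKO, below Trib3 at 2138, Ddit3 at 1993, Ppp1r15a at 1622 and Atf5 at 1209. In WT it was then at 72.7, below Sesn2 at 277 and above Cebpb at 69.8. By that measure Nupr1 held the same place in both groups, so its rise in the order depends on which transcript is counted.

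**Figure D3:**
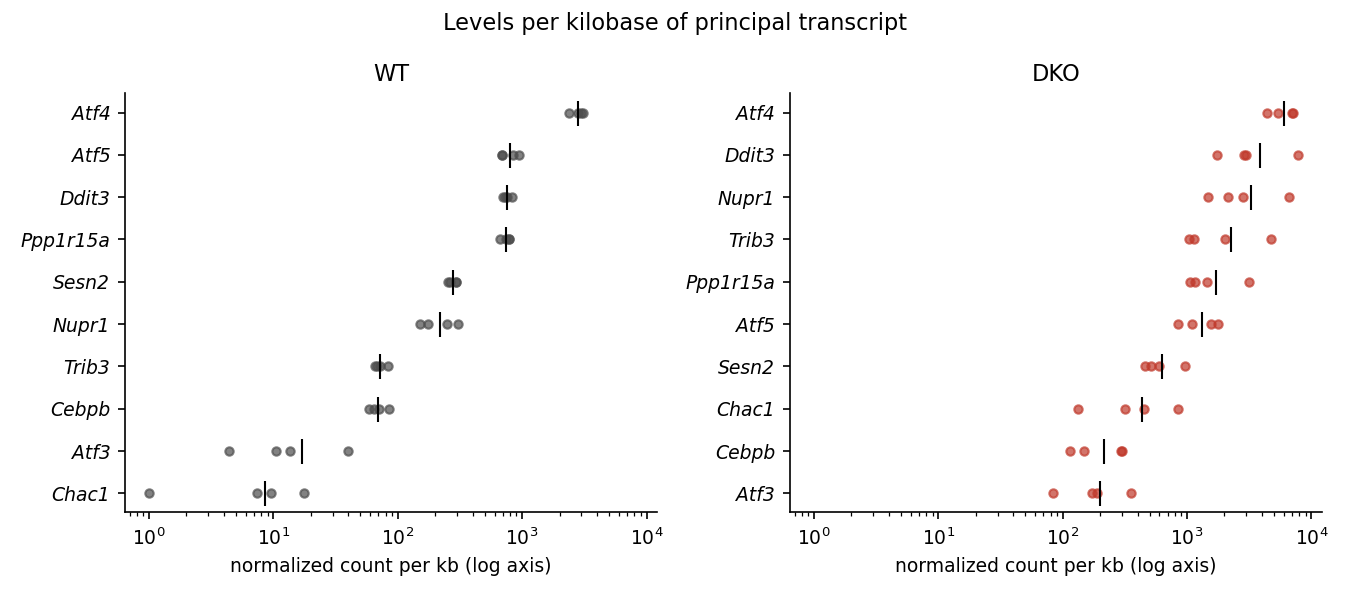
Normalized count per kilobase of principal transcript, on a log axis, in the 4 WT (left) and 4 DKO (right) libraries, with genes in descending order of their group mean (black tick); the Chac1 library at 0 is drawn at 1. Atf4 is first in both groups, and Trib3 and Nupr1 stand higher in the DKO order than in the WT order. For Nupr1 this does not hold per kilobase of all annotated exons.

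The regulators were then examined for features of sequence. Genes chosen as regulators and targets of ATF4 may be known partly through these features. Their shares beside all genes are therefore only a description. ATF4 binds DNA with C/EBP partners at a composite element with the letters TGATGNAA. This was searched on both strands of the RefSeq windows of the GRCm38.p6 build that run from 250 bases before to 50 bases after each transcription start, in which all 10 genes have an entry. Atf3, Nupr1, Chac1 and Trib3 held it, 4 of 10, beside 3.97% of all 32851 windows and 4.51% of the 27025 genes with a window. Each match read TGATGCAA, or TGATGTAA in Trib3, on the strand opposite to the gene. Counted from the RefSeq start of each window, it lay at -110 to -103 in both Atf3 and Nupr1, at -193 to -186 in Chac1 and at 15 to 22 in Trib3. The RefSeq start of Trib3 lies upstream of the gene start in the GENCODE positions given here, and the match in Trib3 is upstream of that GENCODE start. In Atf3 and Nupr1 the RefSeq start lies inside the longer GENCODE gene.

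The 4 windows that held the element are shown. They are printed 5′ to 3′ along the gene, with the match in capitals, which on this strand reads as the reverse complement. Their positions are chr1:191183284-191183583 (minus strand) for Atf3, chr7:126625421-126625720 (minus strand) for Nupr1, chr2:119350992-119351291 (plus strand) for Chac1 and chr2:152344011-152344310 (minus strand) for Trib3.
Atf3: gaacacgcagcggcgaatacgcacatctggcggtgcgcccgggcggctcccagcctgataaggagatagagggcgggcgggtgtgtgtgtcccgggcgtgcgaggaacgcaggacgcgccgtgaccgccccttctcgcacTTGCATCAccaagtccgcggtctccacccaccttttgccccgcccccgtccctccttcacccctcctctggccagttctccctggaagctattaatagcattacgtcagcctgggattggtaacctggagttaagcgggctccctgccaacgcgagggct
Nupr1: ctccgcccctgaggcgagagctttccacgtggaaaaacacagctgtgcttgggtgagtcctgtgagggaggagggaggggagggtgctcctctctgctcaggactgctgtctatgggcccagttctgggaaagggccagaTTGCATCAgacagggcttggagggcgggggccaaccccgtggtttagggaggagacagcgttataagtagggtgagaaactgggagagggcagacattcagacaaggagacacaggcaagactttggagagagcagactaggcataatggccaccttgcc
Chac1: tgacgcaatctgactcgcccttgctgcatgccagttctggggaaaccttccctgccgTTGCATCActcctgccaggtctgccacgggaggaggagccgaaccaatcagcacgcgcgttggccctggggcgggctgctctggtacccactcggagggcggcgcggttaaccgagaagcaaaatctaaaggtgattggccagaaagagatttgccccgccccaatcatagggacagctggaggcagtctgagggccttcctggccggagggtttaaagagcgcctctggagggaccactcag
Trib3: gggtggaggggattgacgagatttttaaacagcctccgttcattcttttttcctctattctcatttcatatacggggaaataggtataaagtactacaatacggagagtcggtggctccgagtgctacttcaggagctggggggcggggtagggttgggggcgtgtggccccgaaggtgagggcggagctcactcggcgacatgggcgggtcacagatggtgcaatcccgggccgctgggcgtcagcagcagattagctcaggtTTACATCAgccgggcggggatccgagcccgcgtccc

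The 4 genes with a match had log2 fold changes of 3.55 to 5.62, and the 6 without one had 0.74 to 2.35. Because the 10 genes were chosen with earlier results of this contrast known, this split is a description, and a link was not tested. Outside the 10 regulators, of 320 tested genes with the element in their window 20 were called higher (6.25%), beside 605 of 11379 without it (5.32%), and the medians of their log2 fold changes were -0.04 and -0.01. The palindromic cAMP response element TGACGTCA was present in 1 of the 10, Ppp1r15a, at -12 to -5, beside 1.79% of all windows. It is shown at chr7:45526219-45526518 (minus strand), with the element in capitals, as the 1 match of this kind. Its share over genes was 2.03%. The ER stress response element ERSE was in none of the 10 windows and in 0.119% of all windows. A match in these letters is not evidence of binding, and other windows of these genes were not searched.
Ppp1r15a: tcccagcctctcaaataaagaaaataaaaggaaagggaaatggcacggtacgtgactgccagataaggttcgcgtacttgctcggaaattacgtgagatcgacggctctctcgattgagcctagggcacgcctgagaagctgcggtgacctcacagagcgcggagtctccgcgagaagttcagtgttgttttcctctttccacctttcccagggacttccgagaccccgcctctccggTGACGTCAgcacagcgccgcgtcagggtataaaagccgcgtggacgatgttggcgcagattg

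Upstream open reading frames were the other feature. In the principal transcript, 7 of the 10 genes had an ATG ahead of the coding start, beside 51.6% of 14003 tested protein-coding genes; Cebpb, Chac1 and Trib3 had none. In 3 of them, Atf4, Atf5 and Ppp1r15a, a reading frame opened there ran past the start of the coding sequence in another frame, beside 16.4% of genes. That frame had 59 codons and ended 83 bases into the coding sequence of Atf4, and had 58 codons in Atf5 and 50 in Ppp1r15a. Ddit3 had a closed upstream frame of 34 codons. These 3 overlapping-frame genes had log2 fold changes of 1.08, 0.74 and 1.19, the 3 lowest of the 10. Sesn2, without such a frame, was next at 1.20 ± 0.21 (SE) and cannot be ranked apart from Ppp1r15a at 1.19 ± 0.31. In DKO replicate 3 alone Cebpb and Sesn2 (0.69 and 0.72) lay below Atf4 and Ppp1r15a (0.92 and 0.94). A link between these frames and the size of change was not tested. RNA counts do not measure translation, so the use of these frames was not measured here.

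The upstream arm of the pathway was set beside the share of all genes called. Of 21 genes of eIF2 control, none was called in either direction by edgeR or by DESeq2. Over all genes tested, edgeR called 6.19% higher and 2.43% lower, so a count of 0 among 21 lies near these shares. At the edgeR adjusted p alone 1 of the 21 rose and 3 fell. An unadjusted edgeR p under 0.05 was found for 7, and the median log2 fold change was -0.06. The 4 kinases were measured in every library. Eif2ak1, which encodes HRI, ranged from 5320 to 6365 normalized counts over the WT libraries, was at 3785, 3961, 4832 and 4462 in the DKO libraries, and fell by 0.46 on the log2 scale (SE 0.10, edgeR adjusted p = 0.0121). Eif2ak2, which encodes the double-stranded RNA kinase PKR, ranged from 1338 to 2113 over WT libraries and was at 3370, 2213, 2447 and 1614 in DKO libraries, and its log2 change of 0.52 ± 0.22 did not pass (edgeR adjusted p = 0.115). Eif2ak3 (PERK) and Eif2ak4 (GCN2) had log2 fold changes of 0.04 ± 0.19 and -0.15 ± 0.11 and did not pass either (edgeR adjusted p = 0.911 and 0.364). Oma1, the mitochondrial protease whose action on DELE1 reaches HRI, fell by 0.59 (SE 0.12, edgeR adjusted p = 0.0113), and Ppp1r15b, the constitutive partner of protein phosphatase 1, fell by 0.34 (edgeR adjusted p = 0.0283). Eif2s2, the β subunit of eIF2, rose by 0.42 (edgeR adjusted p = 0.0248). Over all genes tested, 10.7% were higher and 10.8% lower at that adjusted p, so the counts of 1 and 3 among 21 are near these shares. These are RNA levels, and eIF2α phosphorylation was not measured here.

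Downstream, 46 other known ATF4 targets were set beside the regulators. This list, like the other gene lists here, was chosen with earlier results of these libraries known, so its counts are a description. Of the 45 tested, 37 were higher in DKO, beside 52.6% of all genes tested. By edgeR 14 were called higher, beside 6.19% of all genes, and none lower (16 and none by DESeq2, with 3 lower at an unadjusted edgeR p under 0.05), and the median log2 fold change was 0.49. At the adjusted p alone 19 rose and 2 fell, beside 10.7% and 10.8% of all genes. The strongest by p were Slc7a3, a cationic amino acid transporter, at 56.8 to 116 normalized counts in WT, against 731, 1902, 1115 and 1762 in DKO (log2 fold change 4.14 ± 0.37, edgeR adjusted p = 0.000425), Pck2, the mitochondrial PEP carboxykinase (1.52 ± 0.14, 0.000575), and Slc7a11, the cystine transporter, at 8.61 to 35.6 in WT and 255, 499, 293 and 453 in DKO (4.08 ± 0.47, 0.00143). Ddit4, an inhibitor of mTORC1, followed (3.57 ± 0.51, edgeR adjusted p = 0.0031), with 767 normalized counts in DKO replicate 3 and 5022 in replicate 4. Pycr1 of proline synthesis, Mthfd2 of one-carbon metabolism, Vegfa and Stc2 rose by 1.47, 1.20, 1.76 and 2.17 (edgeR adjusted p = 0.00327, 0.00336, 0.00395 and 0.00445).

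Among 9 amino acid transporters 6 rose at the adjusted p and 4 were called higher, with a median of 0.70. Of 12 enzymes of serine, one-carbon, proline, asparagine and sulfur amino acid metabolism 4 rose and 3 were called, with a median of 0.29. Of 12 aminoacyl-tRNA synthetase genes 2 rose, 2 fell and none was called by edgeR or DESeq2, while 3 were higher and 2 lower at an unadjusted edgeR p under 0.05. The 12 tested targets of other kinds, such as Ddit4, Stc2 and Vegfa, held 7 that were called higher, with a median of 1.48. Over all genes tested, 6.19% were called higher, and at the adjusted p 10.7% were higher and 10.8% lower. Differences between these groups were not tested. The 2 that fell, Wars and Iars (-0.45 and -0.43, edgeR adjusted p = 0.0186 and 0.0419), are named after their values were seen. In DKO replicate 3 alone 7 targets were called, 1 of them lower. Of 10 genes given as CHOP targets 2 were called higher, beside 6.19% of all genes. These were Gadd45a (1.5 ± 0.25, edgeR adjusted p = 0.00531) and Bbc3, which encodes the cell death protein PUMA (1.21 ± 0.30, edgeR adjusted p = 0.0206). Bax rose by 0.61 without reaching the fold threshold (edgeR adjusted p = 0.00303). Gadd45a is on the ATF4 list too, and Bax and Bbc3 are also p53 targets.

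The other arms of the unfolded protein response held no gene that rose. Of 21 genes of the IRE1 and ATF6 arms, 8 fell at the edgeR adjusted p, beside 10.8% of all genes, and 13 did not pass, with a median of -0.32 and none past the fold threshold in either direction. DESeq2 had 0 higher and 11 lower at its adjusted p, and at an unadjusted edgeR p under 0.05 there were 1 higher and 11 lower. Hspa5, the ER chaperone BiP, ranged from 62080 to 77141 normalized counts over the WT libraries and was lower in every DKO library, at 45437, 52635, 45266 and 59243, and fell by 0.45 (SE 0.11, edgeR adjusted p = 0.0186). The ER protein disulfide isomerases Pdia3, Pdia6 and Pdia4 fell by 0.58, 0.48 and 0.63 (edgeR adjusted p = 0.00308, 0.0109 and 0.0117). Sel1l, of the ER-associated degradation complex, fell by 0.41 (edgeR adjusted p = 0.0131). Of 12 mitochondrial chaperone and protease genes 3 rose and 1 fell, none past the fold threshold by edgeR or DESeq2, with 6 at an unadjusted edgeR p under 0.05: the proteases Lonp1, Clpp and Spg7 by 0.86, 0.38 and 0.44 (edgeR adjusted p = 0.0159, 0.0283 and 0.0448), and the chaperone Trap1 by -0.42 (edgeR adjusted p = 0.0209). Beside those mitochondrial counts, 10.7% of all genes rose and 10.8% fell at the adjusted p. Of 20 p53 targets 4 were called higher and 2 lower, beside 6.19% and 2.43% of all genes, with a median of 0.41.

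**Figure D4:**
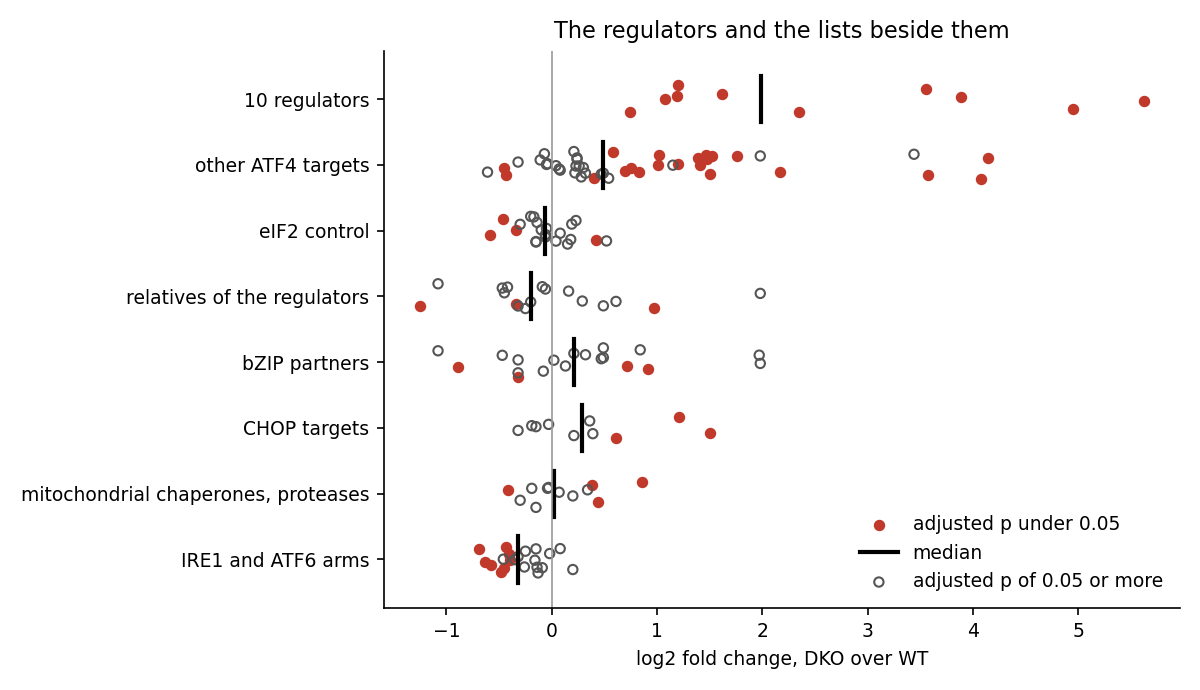
Log2 fold change, DKO over WT, of every tested gene in the lists named at the left; filled points passed an edgeR adjusted p under 0.05, open points did not, and the vertical bar is the list median. Medians run from -0.32 in the IRE1 and ATF6 arms to 0.49 in the other ATF4 targets and 1.99 in the 10 regulators, which were chosen with these values known.

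Relatives of the regulators in the same gene families mostly did not follow them. Of 17 relatives 1 was called lower by edgeR, beside 2.43% of all genes called lower, and none higher, with a median of -0.20. DESeq2 also called 1 lower and none higher, and 2 were higher at an unadjusted edgeR p under 0.05. Sesn1, a sestrin and p53 target, ranged from 1796 to 2437 normalized counts over the WT libraries, was at 1063, 673, 852 and 784 in the DKO libraries, and fell by 1.25 (SE 0.16, edgeR adjusted p = 0.00247), opposite in sign to Sesn2. Sesn3 rose by 0.97 ± 0.28 (edgeR adjusted p = 0.0381). Trib1, which like Trib3 is a Tribbles pseudokinase, had a log2 fold change of 0.61 ± 0.49 and Trib2 -0.25 ± 0.20, and neither passed (edgeR adjusted p = 0.406 and 0.405). Chac2 and Nupr1l, the nearest relatives of Chac1 and Nupr1, had 0.29 ± 0.20 and -0.06 ± 0.50 (edgeR adjusted p = 0.34 and 0.952).

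Among C/EBP genes Cebpa, Cebpd, Cebpe and Cebpg had log2 fold changes of -0.47, -0.32, -1.08 and 0.49, none past the adjusted p (edgeR adjusted p = 0.0931, 0.218, 0.44 and 0.109). The ATF genes Atf1, Atf2, Atf6, Atf6b and Atf7 lay between -0.45 and 0.16 and did not pass, nor did Jdp2 at 1.98 ± 0.98 (edgeR adjusted p = 0.176), which had 0 to 15.7 normalized counts in WT. Of 19 tested bZIP partners none was called by edgeR or DESeq2, beside 6.19% of all genes called higher and 2.43% lower by edgeR. An unadjusted edgeR p under 0.05 was found for 8. Jun and Jund rose by 0.71 and 0.91 (edgeR adjusted p = 0.01 and 0.0068), and Fos and Nfe2l2 fell by 0.89 and 0.32 (edgeR adjusted p = 0.0337 and 0.0483).

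The genes whose profile over the 8 libraries was closest to the median profile of the 10 regulators were sought among 11574 protein-coding genes with a mean of at least 100 normalized counts. Likeness was the root mean square difference on the log2(normalized count + 1) scale relative to the WT mean. The closest was Ciart, a repressor of the circadian clock, at 0.21, with 197 to 273 normalized counts in WT, against 651, 959, 358 and 1510 in DKO. Stc2, a secreted glycoprotein on the ATF4 list, followed at 0.23, with 416 to 493 in WT and 1099, 2277, 1237 and 3546 in DKO. Plk3, a stress-responsive polo-like kinase, was at 0.31, Igfbp1, a secreted IGF-binding protein of liver, at 0.34, and Gadd45a at 0.35. DKO replicate 4 was the highest library in each of the 5. It is also the highest in the median profile by which they were chosen, so this is not a separate result. The 8 libraries share their groups, so this likeness rests mainly on the difference between groups.

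Markers of other cell types also differed between the groups. Of 12 mesenchyme markers 11 were called higher, beside 6.19% of all genes. None was at 0 throughout a group, Lhx2 being at 0 in WT replicate 1 only. The summed level of the 12 was 2239 to 6090 normalized counts in WT, against 13578 to 49355 in DKO. That sum was highest in DKO replicate 1, at 49355, where 5 of the regulators had their lowest DKO value, and it was 22248 in replicate 4, where 8 of them had their highest. Without DKO replicate 1, 9 of the 10 regulators were called, beside 853 of 17798 genes called higher in that fit. DKO replicates 2, 3 and 4 also had mesenchyme sums above every WT library (13578, 15549 and 22248). A link between that sum and the regulators was not tested. Of 18 myeloid markers 8 were called lower, with a summed level of 119684 to 155333 in WT and 8393 to 56934 in DKO. Of 12 progenitor markers 6 were called lower (47506 to 59359 and 24554 to 32268). Over all genes tested, 2.43% were called lower. In sorted cells measured in bulk, fewer cells of a type and less RNA per cell cannot be told apart.

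Of 17 tested hepatoblast markers none passed the adjusted p by edgeR, 5 having an unadjusted p under 0.05 and 4 being lower at the DESeq2 adjusted p, and their summed level was 802657 to 1089540 normalized counts in WT, against 254838 to 950466 in DKO. In DKO replicates 1 to 4 it was 609026, 950466, 254838 and 851629, and no DKO library exceeded the highest WT library. The lowest, 254838, was DKO replicate 3, where Atf5 and Cebpb, which are abundant in liver cells, and Ddit3, Trib3 and Sesn2 had their lowest DKO values. Atf5 and Cebpb ranked the DKO libraries in the same order as this sum. The other 8 regulators were highest in DKO replicate 4 and did not follow that order. All 10 regulators were higher in DKO than in WT. Erythroid markers had none called by edgeR or DESeq2 and 4 at an unadjusted edgeR p under 0.05. Called lower were 1 of 10 megakaryocyte, 1 of 7 tested lymphoid and 1 of 10 endothelial markers, beside 2.43% of all genes. Replication-dependent histones, whose RNA largely lacks a poly(A) tail, were higher in DKO in 61 of 62 genes, with a median log2 fold change of 1.61; fitted without them and on protein-coding genes alone, the regulators had a median of 2.02. The part of these differences in the values of the regulators was not tested.

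**Figure D5:**
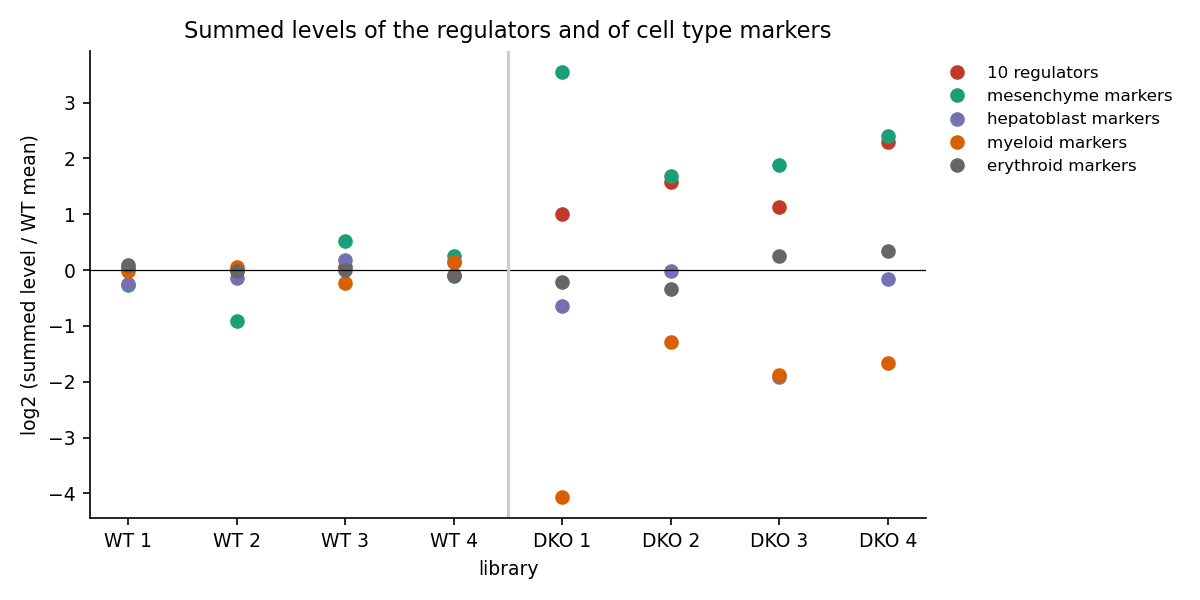
Log2 ratio of the summed level of each list to its mean over the 4 WT libraries, for the 10 regulators and 4 cell type marker lists in each of the 8 libraries. Mesenchyme markers peak in DKO replicate 1 and hepatoblast markers are lowest in DKO replicate 3, while the regulators are highest in DKO replicate 4.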

How the data were processed

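RNA of FACS-sorted S0 cells from E12.5 fetal livers was measured in 4 WT and 4 DKO libraries, made with template switching from poly(A) RNA. Per the labels and the study's methods, the authors trimmed reads with fastp 0.21.0, aligned them to mm10 with HISAT2 2.2.1, kept those with a mapping quality of at least 20 and quantified genes with StringTie 1.3.3b. The deposited values are raw counts per gene, not normalized. Whether each library came from 1 embryo is not given in the sources used here, so the p-values measure the spread between these samples, which may be technical.

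Of the 52636 gene identifiers 52489 matched the GENCODE M21 annotation, from which symbols and positions were taken; the authors used another release. Counts were tested with edgeR 4.0.16 (quasi-likelihood test, TMM factors, filterByExpr, all 8 libraries, no covariates) in R 4.3.3, with Benjamini-Hochberg adjustment over all 17378 genes tested; the code was tested on simulated data. Calls need a log2 fold change beyond 1 in either direction at an adjusted p below 0.05. The regulators and all gene lists were chosen with earlier results of these data known. Named genes are the 10 regulators, the 4 eIF2α kinases, each relative of a regulator, up to 8 genes per other list by smallest p among those past the adjusted p, and the 5 genes of nearest profile. Alternatives were DESeq2 1.42.0, library sizes without TMM, upper-quartile scaling, other low-count filters, a replicate block, protein-coding genes without histones, each library left out in turn, and DKO replicate 3 alone. No 2 libraries of the same group were alike within sampling noise.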

Additional observations from a re-analysis of the deposited data

How the results depend on the processing

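All 10 log2 fold changes of the regulators stayed above 0 under each of the 16 alternatives run (15 for Chac1, which has no value when at least 10 counts are required in every library). Of these 159 values 154 moved by less than 1 SD between replicates and 5 by more, all 5 of them (Ddit3, Atf5, Cebpb, Trib3 and Sesn2) in DKO replicate 3 alone. Leaving out a single library can hardly shift a group mean by that much. For those fits this tally could not show a dependence, and the ranges and calls below are the measure. In DKO replicate 3 alone, 5 regulators were called, their median log2 fold change was 1.07 and 7 other ATF4 targets were called, against 9, 1.99 and 14 with all libraries; fewer samples enter that fit. With each library left out in turn, 6 to 9 regulators were called, 8 to 10 passed the adjusted p, the median ran from 1.60 to 2.21, and 10 to 15 other ATF4 targets were called. DESeq2 called 9 regulators and 16 other targets. No gene of eIF2 control was called under any alternative. Atf5 did not pass the adjusted p without a low-count filter, with the replicate block, in DKO replicate 3 alone, or without any 1 of the WT libraries, DKO replicate 2 or DKO replicate 4. Ppp1r15a did not pass without any 1 of the WT libraries, and Cebpb did not pass with the replicate block or in DKO replicate 3 alone.

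Replicate numbers are shared by the groups, but libraries with the same number did not deviate together over all genes tested (correlations of -0.0893, 0.0433, -0.0206 and -0.00748). Such correlations cannot exclude a shared batch that acted on fewer genes. With the replicate block 8 regulators were called, their median was 1.82, 12 other targets were called, and the calls over all genes went from 1076 to 613 higher and from 423 to 343 lower. Without WT replicate 1 the calls were 566 higher and 258 lower. Upper-quartile scaling moved the median of all genes from 0.03 to 0.14 and gave 1228 higher and 325 lower, DESeq2 1658 and 617, and DKO replicate 3 alone 590 and 1143. Genes with few counts, such as Chac1 in WT, are limited by depth.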
